A study of Rattus norvegicus with 2 samples.

Results

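Lone narrow regions are the stretches of H3K27me3 signal that stand by themselves in the list of marked regions from rat sciatic nerve. They were taken as the regions on chromosomes 1 to 20 that were 500 bp wide or less and had no other listed region within 50 kb on either side, measured edge to edge. The rule found 4237 of the 90174 listed regions (4.70%), and 5.50% of the 77007 narrow regions on these chromosomes. They held 1.52% of the ChIP tags found in regions of chromosomes 1 to 20 and 1.87% of the covered length. The members were chosen by their width and spacing, and both come from the peak caller that also counted their tags. Values of ChIP tags, input tags and fold are therefore descriptions of the list as called, and none was tested.

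The study mapped H3K27me3 in freshly dissected sciatic nerve of male Sprague Dawley rats. Both ChIP libraries form 1 group with 1 antibody, no treatment and no untreated counterpart in the labels, and a passage field reads P28 without saying what it means for tissue. The header of the list names its tag directories Sham, a word absent from the sample labels. Regions were called on 46.8 M combined ChIP tags against 41.2 M combined input tags, and no value exists per library, so no spread between animals can be given.

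H3K27me3 is the trimethyl mark that Polycomb repressive complex 2 places on histone H3 through its catalytic subunits EZH2 and EZH1. The mark typically forms broad domains over silent developmental genes, because the EED subunit binds the finished mark and stimulates its placement on nearby nucleosomes. In Schwann cells, the myelinating and ensheathing glia of the nerve, Polycomb silencing is known to restrain genes that are switched on after nerve injury. The nerve also holds fibroblasts, perineurial, endothelial and immune cells. In such a mixture, fewer cells with the mark and less mark per cell cannot be told apart. A narrow called region without neighbours differs in form from the broad domains, which raises the question of how far its tags stand above counting noise.

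The lone regions carried few tags each. Their ChIP tags ranged from 11 to 99, with a median of 20 and quartiles of 17 and 23, and 69.1% of them held 14 to 22 tags. In all, 60 lone regions held 40 or more tags and 8 held 60 or more. The caller required 14 tags per window of 150 bp. A total of 76 lone regions (1.79%) nevertheless held fewer than 14 tags over the listed interval, so the interval and the window that passed the minimum are not identical. No molecular identifiers were counted, so the intervals given here cover counting error only.

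For a region with the median of 20 tags, the 95% exact Poisson interval ran from 12.2 to 30.9 tags and thus included 14. A region needed 23 tags for the whole interval to lie above 14. This was reached by 1232 lone regions, or 29.1% (95% exact binomial interval 27.7% to 30.5%). Of all regions on chromosomes 1 to 20 it was reached by 51.1%, and of the other narrow regions by 43.9%. Much of this gap went with width, since 89.1% of the lone regions had exactly 150 bp, the window of the caller, against 64.2% of the other narrow regions. Among regions of exactly 150 bp, the share was 22.5% (21.2% to 23.9%) for the 3776 lone ones and 20.5% (20.1% to 20.9%) for the 46713 others. Over autosomes the difference was 1.60 ± 4.05 percentage points, smaller than the SD of single autosomes, with lone regions higher on 14 of 20. A number that is listed because it passed a minimum is too high on average, and the intervals do not correct for this.

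The list also gives the caller's score, a whole number that the header does not define and whose lowest value in the list, 14, equals the tag minimum. How the score relates to the tags of the window that passed is not known. The header also gives a maximum of 2 tags considered per bp. Whether the recovered tags were held to this maximum is not stated. The minimum of 14 may therefore apply to a smaller number than the recovered tags. The header's 2.692 expected ChIP tags per window also lie below 3.09, the input tags per 150 bp at an even spread. The ChIP total of 46.8 M is nevertheless larger than the input total of 41.2 M. At the same genome size, the expected number was thus not set on all ChIP tags. The shares with a tag interval above 14 then compare unlike scales and may be too high. The score was exactly 14 in 1960 lone regions, or 46.3% (44.7% to 47.8%), against 31.7% of all regions on chromosomes 1 to 20. A score of 20 or more was found in 104 lone regions (2.45%). At the same width of 150 bp, 48.5% of lone and 39.7% of other regions had a score of 14. Per autosome the share was 47.6% ± 4.7 for lone and 39.7% ± 1.04 for other 150 bp regions (SD over 20 autosomes), and it was higher for lone regions on 19 of 20. The mean score was 15.06 ± 0.12 against 15.44 ± 0.06 and was lower for lone regions on 20 of 20 autosomes, with ranges of 14.87 to 15.33 and 15.35 to 15.60 that did not overlap. Autosomes share both libraries and are not animals, so no p-value is given for these differences.

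**Figure D1:**
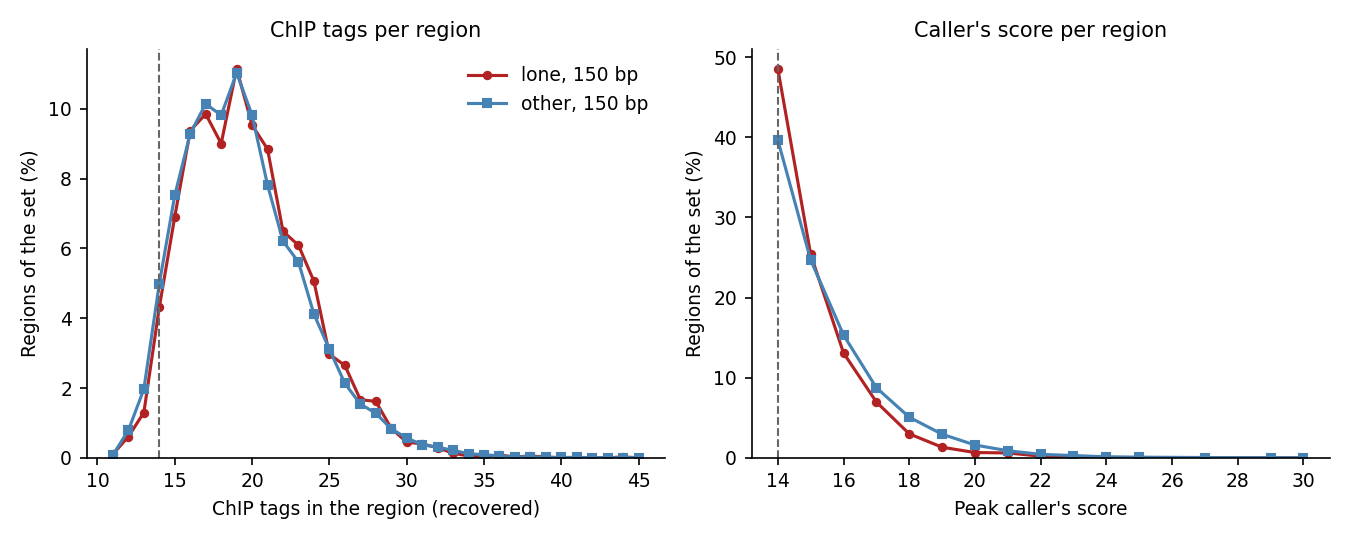
Share of regions (%) at each number of ChIP tags (left) and at each value of the caller's score (right), for the 3776 lone (red circles) and 46713 other (blue squares) regions of exactly 150 bp; the dashed line marks 14 and the axes end at 45 tags and a score of 30. The tag curves nearly coincide, with the highest share at 19 tags in both sets, while 48.5% of lone and 39.7% of other regions have a score of 14.

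The tag curves of lone and other 150 bp regions were nearly the same in shape. Both had their highest share at 19 tags, 11.1% of lone and 11.03% of other regions. This is the smallest number at which 4 input tags still pass the fold of 4 that the caller required over input. At 18 tags, where 3 input tags are the most that pass, 9.004% of lone and 9.82% of other regions were found. Mean tags were 19.7 ± 0.38 in lone and 19.5 ± 0.16 in other 150 bp regions (SD over 20 autosomes). The difference of 0.22 ± 0.35 tags was smaller than its spread over autosomes, with lone regions higher on 14 of 20. It turned to -0.40 among regions at or below the median clonal value of the list, a measure described below, so no direction is given.

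Input tags give the second view of noise, because the input library was made without the antibody. Lone regions held 0 to 16 input tags, with a median of 2 and quartiles of 1 and 3. There was no input tag in 352 lone regions (8.31%), against 7.93% of all regions on chromosomes 1 to 20. There was 1 in 892, 2 in 1147, 3 in 1091 and 4 in 539. The other 216 held 5 or more. At an even spread over the genome size in the header, 150 bp would hold 3.09 input tags. Lone regions of 150 bp held 2.20 ± 0.14 and other 150 bp regions 2.06 ± 0.07 (SD over 20 autosomes). The fold minimum limits input in every listed region, to at most 3 tags under 14 ChIP tags and 4 under 20. The lone regions were higher in input on 17 of 20 autosomes, by 0.13 ± 0.12 tags, and regions without any input tag made up 8.75% ± 3.2 of lone and 12.06% ± 1.2 of other 150 bp regions. Over all 150 bp regions of each kind that was 8.79% and 12.0%.

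All 4237 lone regions had a ChIP to input ratio whose 95% counting interval lay above 1. The same held for all other narrow regions. The caller listed no region under its fold minimum of 4 or above its Poisson p limit of 0.0001 over input. These filters together largely fixed this outcome in advance. The interval lay above 4 in 230 lone regions, or 5.43% (4.77% to 6.15%), compared with 17.1% of all regions on chromosomes 1 to 20. Among 150 bp regions it was 4.63% (3.99% to 5.35%) of lone and 6.00% of other regions. Of the 230, 177 had no input tag, and without regions of 0 input tags the share fell to 1.36%. Conversely, 899 lone regions (21.2%) would have dropped under the fold of 4 with 1 more input tag, against 14.4% of all regions and, at 150 bp, 22.9% of lone against 21.6% of other regions.

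Both intervals can be read together, against minima that are limits of the caller and not levels of noise. In 2887 lone regions (68.1%) neither the tag interval lay above 14 nor the ratio interval above 4. In 1120 the tag interval alone did, in 118 the ratio interval alone, and in 112 (2.64%) both did. These 112 held 23 to 99 tags, with 62 of them at 150 bp, 59 without an input tag and 40 with 1. A score of 14 was found in 25 of the 112, in 307 of the 1120 and in 1576 of the 2887. A tag interval above 14 thus did not always go with a score above the minimum. A total of 2410 lone regions (56.9%) had the lowest score of the list, 14, or a fold that 1 further input tag would take below 4, or both. Among 150 bp regions this was 59.9% of lone and 51.6% of other regions.

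**Figure D2:**
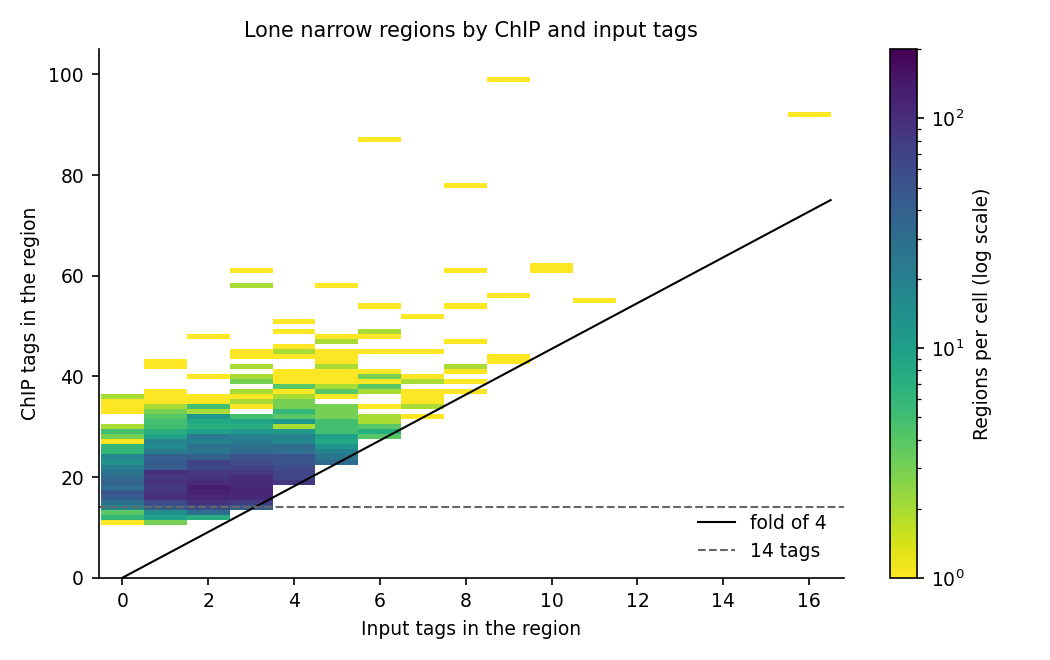
ChIP tags (vertical axis) against input tags (horizontal axis) of the 4237 lone narrow regions. Colour gives the number of regions in each cell on a log scale. The solid line is a fold of 4 after scaling to the totals of combined ChIP and combined input tags, and the dashed line is 14 tags. Most regions lie at 14 to 22 tags over 0 to 4 input tags, and 8 regions hold 60 or more tags. With 1 more input tag, 21.2% of the regions would fall under the fold of 4.

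Pooled over the members, 88235 ChIP tags faced 9824 input tags, a ratio of 7.90 after scaling (95% counting interval 7.74 to 8.07). The other narrow regions had 8.27 (8.23 to 8.31), and narrow regions with a region of at least 5 kb closer than 50 kb had 8.36 (8.25 to 8.47). At 150 bp the ratio was 7.91 ± 0.49 in lone and 8.31 ± 0.25 in other regions over 20 autosomes. It was lower in lone regions on 17 of 20 autosomes, by 0.40 ± 0.45, where 0.45 is the SD of single autosomes. Pooled over all 150 bp regions it was 7.84 (7.67 to 8.02) in lone and 8.29 (8.24 to 8.35) in other regions. These intervals did not overlap, but they cover counting error only. ChIP density was 131.2 tags per kb in the lone regions and 129.7 in the other narrow ones, and both lay below the 173.3 of regions of 2 to 5 kb, whose pooled ratio was 10.2 (10.2 to 10.3). The width of a region depends on how many windows pass the minimum, so density and width are not independent.

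The peak caller's own model gives a scale for these numbers. The header states 2.692 expected tags per window and a Poisson probability of 9.92e-07 for 14 or more. Over the 13333333 separate windows of 150 bp in the header's genome size that is 13.2 windows. The stated false discovery rate of 0.001 over 489809 putative peaks would allow 490 of them, and even if all were lone narrow regions they would be 11.6% of the 4237. The model assumes evenly spread tags and separate windows, which ChIP libraries and a sliding search do not meet, and these values are its terms, not a test of the members. The lone regions with the fewest tags held 11, with an interval of 5.49 to 19.7 that lay above 2.692. The minimum of 14 largely fixed this in advance.

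Lone regions also had higher clonal values than the other regions of their width, taken at all nearer distances together. The header limits the fold under the expected number of unique tag positions to 2.00, and the clonal column, which reached 1.99 over the list, is read here on that scale, so that a higher value means tags at fewer positions. Lone regions had a median clonal value of 1.08 with quartiles of 0.96 and 1.25, and other narrow regions 0.97 with 0.86 and 1.12. At 150 bp the mean was 1.09 ± 0.03 in lone and 1.01 ± 0.01 in other regions (SD over 20 autosomes). Lone regions were higher on 20 of 20 autosomes, by 0.08 ± 0.02, and the ranges over autosomes, 1.05 to 1.14 and 0.98 to 1.03, did not overlap. A clonal value over 1.5 was found in 6.22% of lone and 3.02% of other 150 bp regions. The mean was 1.23 in the 112 lone regions with both intervals above their minimum and 1.27 in the 1120 with the tag interval alone. In the 2887 with neither it was 1.02. The clonal value rises with the number of tags, from 0.79 in lone 150 bp regions of 14 tags to 1.36 in those of 26. When other regions were weighted to the tag numbers of the lone ones, the values were 1.10 and 1.02, again higher on 20 of 20 autosomes. With the same weighting, 48.5% of lone and 38.3% of other regions had a score of 14. Whether the score and the clonal value are separate traits was not tested.

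The clonal value and the share with a score of 14 rose by steps with distance up to the class of 100 to 200 kb, while mean tags changed little. Among regions of 150 bp, the mean clonal value was 0.97 ± 0.01 (SD over 20 autosomes) where the nearest region lay within 0.5 kb and 1.03 ± 0.01 at 3 to 10 kb. It was 1.06 ± 0.02 at 10 to 50 kb, just outside the distance rule. Within the lone regions it was 1.08 ± 0.03 at 50 to 100 kb, 1.10 ± 0.04 at 100 to 200 kb and 1.10 ± 0.05 beyond 200 kb. The share with a score of 14 went from 35.2% ± 2.5 within 0.5 kb to 44.9% ± 3.3 at 10 to 50 kb, and was 46.8% ± 5.9, 48.9% ± 8.0 and 46.4% ± 10.9 in the 3 classes of lone regions. Mean tags were between 19.4 and 19.8 in all 8 classes, with a small rise from 19.4 ± 0.32 at 3 to 10 kb to 19.8 ± 0.77 beyond 200 kb. The ranges of mean ± SD over autosomes thus overlapped between regions at 10 to 50 kb and lone regions at 50 to 100 kb. They also overlapped among the 3 classes of lone regions. Such an overlap of single autosomes does not show that the means are equal.

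**Figure D3:**
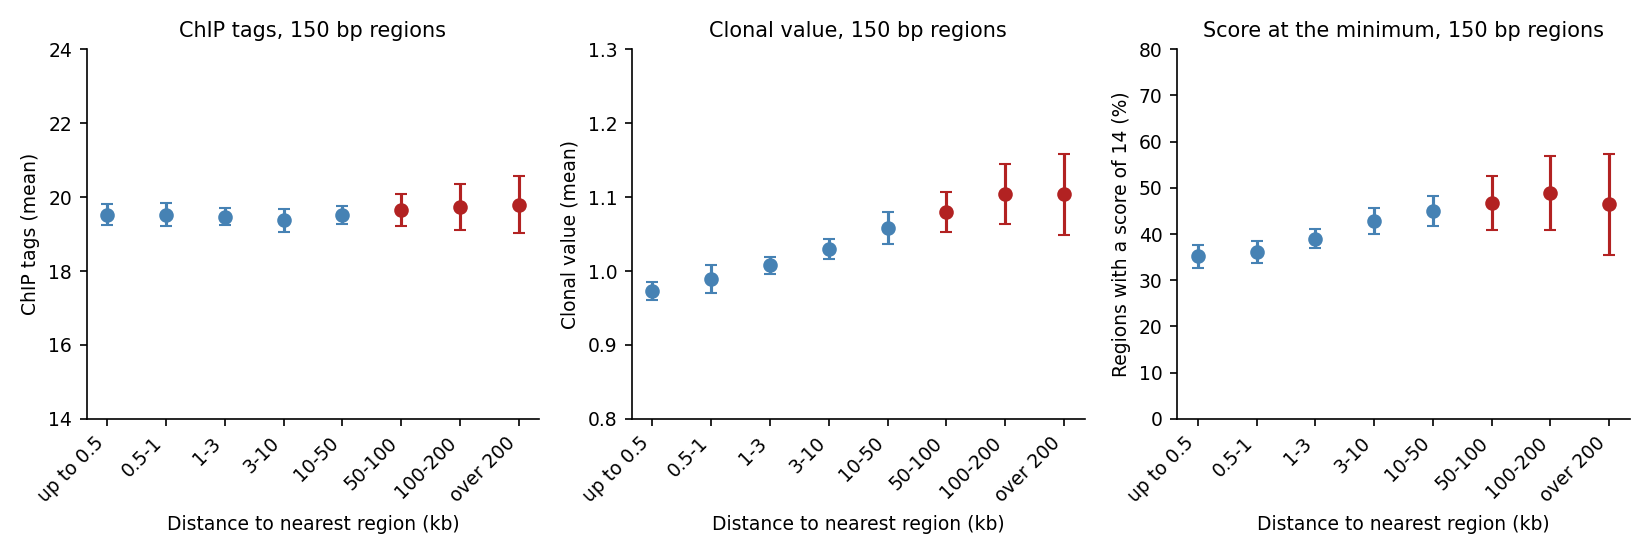
Mean ChIP tags, mean clonal value and share of regions with a score of 14 (%) for regions of exactly 150 bp, by distance to the nearest listed region (kb); points and bars are mean and SD over 20 autosomes, blue for regions with a neighbour within 50 kb and red for lone regions, and the vertical axes of the first 2 plots do not start at 0. Tags stay between 19.4 and 19.8 while the clonal value goes from 0.97 to 1.10.

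The 461 lone regions wider than 150 bp stood higher above the minimum. Their widths ran from 187 to 493 bp with a median of 201 bp, and 374 of them were at most 250 bp wide. They held 14 to 99 tags, with a median of 28, over a median of 3 input tags. Their tag interval lay above 14 in 382 (82.9%), compared with 85.9% of other narrow regions wider than 150 bp, and their ratio interval above 4 in 55 (11.9%), compared with 17.1% of those others. Per kb they held 128.8 ChIP tags, close to the 131.6 of lone 150 bp regions, so the higher tag numbers went with the greater width. Of the 60 lone regions with 40 or more tags, 3 had a width of 150 bp.

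The lone region with the most tags lay on chromosome 12 from 434323 to 434550, where 99 ChIP tags (95% interval 80.5 to 120.5) faced 9 input tags. Its fold in the authors' list was 9.67 (counting interval 4.90 to 21.8), and its score of 58 was the highest of the lone regions. Positions are those of the file, whose genome build is not stated in the labels or the header, and no gene was assigned to them. A region on chromosome 2 from 100100470 to 100100720 followed with 92 tags, but over 16 input tags, the most of any lone region. Its input density of 64.0 tags per kb compares with 14.6 over all lone regions, and its fold of 5.06 had an interval of 2.95 to 9.22. The third and the fourth were neighbours of each other on chromosome 1, 89.0 kb apart. The first of this pair, from 187677756 to 187677906, held 78 tags over 8 input tags at a fold of 8.58 (4.14 to 20.6). The other, from 187766894 to 187767044, held 87 tags over 6 input tags at 12.75 (5.63 to 35.7), and its clonal value of 1.67 and score of 18 stood against 1.09 and 34 in the first. All 4 had input densities of 39.6 to 64.0 tags per kb, above the mean of the lone regions. The fifth, on chromosome 20 from 23788232 to 23788690, held 62 tags over 10 input tags at a fold of 5.45 (2.78 to 11.9).

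Among lone regions with at least 3 input tags, the highest fold was 17.88 (5.84 to 89.1), on chromosome 9 from 623425 to 623865, with 61 tags over 3. Regions on chromosome 11 from 14407506 to 14407855 and on chromosome 12 from 485895 to 486349 both held 58 tags over 3, at a fold of 17 (5.54 to 84.9). The second of these lay 51.3 kb from the region with 99 tags and was its nearest neighbour in the list. A region on chromosome 16 from 59290336 to 59290828 had 45 tags and a fold of 13.19 (4.24 to 66.4). Another on chromosome 16, from 39745225 to 39745535, had 44 tags and a fold of 12.90 (4.14 to 64.9). The intervals of these 5 overlap almost entirely, and this depth does not resolve their order.

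The 5 most isolated regions held 18 to 32 tags, and 3 of them were above the upper quartile of 23 of all lone regions. On chromosome 3 the region from 81299774 to 81299924 was 1119.5 kb from its nearest neighbour and held 18 ChIP tags and no input tag. On chromosome 13 the region from 33723037 to 33723187, at 1118.2 kb, also held 18 tags, over 3 input tags. The next held 24 tags over 4 on chromosome 11 (26455739 to 26455889), 25 over 3 on chromosome 1 (68863631 to 68863781) and 32 over 5 on chromosome 13 (70812805 to 70813027). These 5 were the lone regions over 1 Mb from any other. The 95% tag interval of the first pair, 10.7 to 28.4, included 14, and those of the other 3 did not. None of the 5 had a ratio interval above 4. The lone 150 bp region with the fewest tags, on chromosome 1 from 44101493 to 44101643, held 11 tags (5.49 to 19.7) over 1 input tag.

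Isolation had a median of 95.1 kb, with quartiles of 66.4 and 150.9 kb. There were 1976 lone regions over 100 kb from any other, 639 over 200 kb and 73 over 500 kb. Wide marked regions were far away, at a median of 1088 kb for those of 2 kb or wider and 3411 kb for those of 5 kb or wider. For other narrow regions these medians were 197 kb and 1079 kb. The distance rule itself keeps every wide region over 50 kb from a lone one. The nearest listed region was itself narrow for 97.2% of the lone regions, where 86.0% of all regions are narrow, and it was 2 kb or wider for 19. For 2906 lone regions (68.6%) the next region on at least 1 side was also lone and narrow. Such regions were 4.73% of all regions on these chromosomes, but the distance rule also leaves any neighbour free on that side. Lone regions followed each other in 2231 runs, of which 1331 held a single region, 144 held 5 or more and the longest held 18. The 1 Mb bin around a lone region held a median of 15 listed regions (quartiles 6 and 30), against 62 (36 to 101) around other narrow regions, which the distance rule fixes in part. Lone regions were present in 2015 of the 2583 bins with any region, and at most 8 lay in 1 bin.

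Every autosome carried lone regions, from 59 on chromosome 12 to 480 on chromosome 2. As a share of listed regions they were lowest on chromosome 12 with 2.46% (95% interval 1.87% to 3.16%), chromosome 10 with 2.47% (2.10% to 2.89%) and chromosome 8 with 2.68% (2.30% to 3.10%), whose intervals overlap. The share was highest on chromosome 2 with 8.33% (7.63% to 9.08%) and chromosome 11 with 7.74% (6.66% to 8.93%), which also overlap. Chromosomes 10, 8 and 12 had the most listed regions per Mb of span, at 54.9, 49.3 and 44.1, and chromosome 2 the fewest, at 20.2. A region has fewer free stretches around it where the list is dense, so the share follows in part from the rule. Lone regions per Mb varied less, from 1.08 on chromosome 12 to 1.83 on chromosome 11, a ratio of 1.69 against 2.71 for all regions per Mb. Chromosome 4 had 22.8 listed regions per Mb, more than chromosome 2 alone, and a share of 5.41% (4.84% to 6.03%), below those of chromosomes 2 and 11. The mean tags of lone regions were 20.1 to 22.3 on the 20 autosomes and their pooled ratio was 7.40 to 9.52, the highest on chromosome 12 (7.90 to 11.6).

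**Figure D4:**
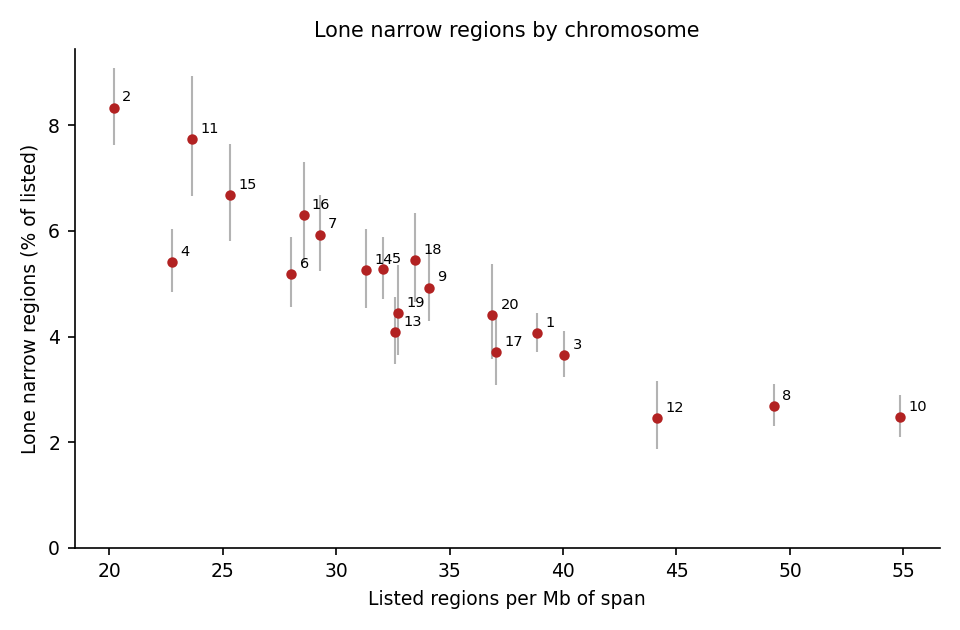
Lone narrow regions as a share of the listed regions of each autosome (%), against listed regions per Mb of span; points carry the chromosome number and bars are 95% exact binomial intervals. The share runs from 2.46% on chromosome 12 to 8.33% on chromosome 2.

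The 2 regions named on each side of each limit of the rule had values alike in kind, with 1 exception. So few regions do not stand for all regions near the limits. Just inside the width limit, the widest lone region (chromosome 14, 20099306 to 20099799, 493 bp) held 37 tags over 3 input tags and the next, of 492 bp on chromosome 16, held 45 over 3. Just outside it, an isolated region of 506 bp on chromosome 15 (30740138 to 30740644) held 210 tags over 12, and one of 515 bp on chromosome 17 (1086133 to 1086648) held 45 over 7. In all, 49 regions met the distance limit and were wider than 500 bp, up to 9709 bp. Just inside the distance limit, a region on chromosome 3 (56690789 to 56690939) at 50.010 kb held 23 tags over 2 and one on chromosome 9 (67192505 to 67192768) at 50.024 kb held 45 over 5. Just outside, 2 regions on chromosome 2 at 49.997 kb (143557081 to 143557231) and 49.986 kb (69344841 to 69344991) held 18 over 2 and 29 over 5.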

How the data were processed

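ChIP tags were counted in sciatic nerve by the authors with HOMER findPeaks in region mode, per the file headers, on combined ChIP and input tag directories. The submitters' processing notes also name CASAVA 1.8.2 and Bowtie. The sources used here do not give which libraries were combined, the depth per library or the genome build. The deposited ChIP signal is scaled to 10000000 tags. ChIP tags were recovered from it with the header's total of 46826704, and 100% of regions came within 0.25 of a whole number. The deposited input signal has 0.5 for 0, taken here as 0. The deposited fold is the ratio of scaled ChIP to input tags. The deposited score and clonal value were used as given. The deposited p-value, the caller's filter, was used only to check that no listed region lay above the limit of 0.0001. The input total was derived from the ratio of the 2 scaled columns. Intervals are exact Poisson for tags and Clopper-Pearson for shares and ratios (scipy 1.17.1). The scripts were tested on simulated data.

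The members and lists were chosen with earlier results of these data known. Regions named are the 5 lone regions with the most tags, the 5 of highest fold with 3 or more input tags, the 5 farthest from others, the lowest, the widest and those beside each limit. The comparisons of score and clonal value, the weighting by tag number (35 or more pooled) and the combined counts were added after seeing the data. No sequence was read, for want of a genome in the file's build.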

Additional observations from a re-analysis of the deposited data

Results flagged for a closer look

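Signal outside the autosomes was flagged because the rule did not take it in. On X, 75 of 606 listed regions met the same width and distance limits, or 12.4% (95% exact binomial interval 9.86% to 15.3%), above the 8.33% of chromosome 2, the highest autosome. The list was sparse on X, with 606 regions over 154.1 Mb against 4395 over 156.8 Mb on chromosome 6. The share on X thus also follows in part from the rule. The rats were male, and no value was adjusted for the number of X copies. Lone regions of X lay at 0.487 per Mb of span, below the lowest autosome at 1.08. Their median of 19 tags was near that of the autosomal lone regions, with fewer input tags (mean 1.76) and their pooled ratio over input was 10.8 (9.04 to 13.0). No input tag lay under 17 of the 75 (22.7%). Their mean clonal value at 150 bp was 1.05, at the lower end of the autosomal range of 1.05 to 1.14. On unplaced or random scaffolds 25 of 45 regions met the limits, and each of the 25 was the only listed region of its scaffold, where distance carries no information. Neither difference was tested.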

How the results depend on the processing

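No paired analysis was possible because the list has no column per library, and for the same reason no replicate could be left out. The number of lone regions went from 4237 to 7830 at a distance of 25 kb and to 1976 at 100 kb, with the share per autosome going from 4.92% to 9.07% and 2.31%. The median of 20 tags became 19 at a width limit of 150 bp and 18 at or below the median clonal value. The share with a tag interval above 14 was 29.1%, and 14.2% with 99% intervals and 22.5% at 150 bp. The share with a ratio interval above 4 was 5.43%, and 0.590% with 99% intervals, 4.63% at 150 bp and 1.36% without regions of 0 input tags, where the pooled ratio went from 7.90 to 7.30. The difference in mean tags turned from 0.22 to -0.40 at or below the median clonal value. The cause was not tested. The score difference of -0.38 became -0.53 against other regions with a neighbour within 3 kb. The clonal difference was 0.076 to 0.101 under its 4 alternatives, against 0.080. Alternatives for score and clonal value were chosen after seeing the data. Low tag numbers limit what single lone regions can show at this depth.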
